A study of Mus musculus with 2 samples.

Results

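The Rtl1-antisense microRNAs are a run of microRNA genes on mouse chromosome 12 that lie antisense to the coding sequence of the imprinted gene Rtl1 or next to it. They were taken by symbol, as Mir337, Mir540, Mir665, Mir431, Mir433, Mir127, Mir434 and Mir136. Of these 8 genes, 7 had a row in the count tables, out of 1973 microRNA genes listed there. Mir136 had no row under its identifier. Each of the 7 genes passed the minimum of 10 counts in both tables. The libraries, which the labels call biological replicates, came from midbrain of mouse embryos of strain B6NCrl at embryonic day 12.5, male and female embryos pooled, and were made from RNA below 30 nucleotides. Replicate 1 came from a pool of 120 embryos and replicate 2 from a pool of 88. Both belong to 1 group with no treatment or second tissue, so levels were compared between genes and between the 2 replicates. A difference between the 2 pools may be biological or technical, and in whole tissue fewer cells of a type and less RNA per cell cannot be told apart.

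MicroRNAs are cut from hairpin precursors and guide Argonaute proteins to messenger RNAs, mostly through pairing of the seed near their 5′ end. The Dlk1-Dio3 domain is imprinted: Dlk1, Rtl1 and Dio3 are expressed mainly from the paternal chromosome, and the long non-coding RNAs Meg3, Rian and Mirg, with the microRNAs beside them, from the maternal one. Rtl1 is a gene derived from a retrotransposon and is needed for the fetal capillaries of the mouse placenta. In the mouse, microRNAs made from its maternal antisense transcript pair perfectly with Rtl1 messenger RNA and direct its cleavage. The microRNAs of the domain are abundant in embryonic tissues and brain.

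The sequences show this arrangement. In RefSeq (GRCm38.p6, the same assembly as mm10), all 8 hairpins were on the plus strand of chromosome 12 within 9.60 kb. The coding sequence of Rtl1 (GENCODE M21, minus strand, chr12:109590172-109595403) held 5 of them whole: Mir431 (chr12:109590447-109590537), Mir433 (chr12:109591715-109591838), Mir127 (chr12:109592846-109592915), Mir434 (chr12:109594506-109594599) and Mir136 (chr12:109595327-109595388). All 5 lay over exon 2 of the 2 exons of the transcript. The other 3, Mir337 (chr12:109585789-109585885), Mir540 (chr12:109586080-109586146) and Mir665 (chr12:109586314-109586407), lay 3.77 to 4.29 kb past the end of the coding sequence and outside the GENCODE gene. The longer Rtl1 span in RefSeq (chr12:109564900-109604418) covers all 8. The label therefore fits 5 of the genes by GENCODE, and the other 3 were taken as neighbours.

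The mature sequences of the 2 most abundant genes, Mir127 and Mir431, and of Mir433, whose difference between the libraries ran against the rest, are shown from RefSeq (GRCm38.p6, plus strand), 5′ to 3′, with the seed (bases 2 to 8) in capitals.
miR-127-5p: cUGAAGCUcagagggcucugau
miR-127-3p: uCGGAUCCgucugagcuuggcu
miR-431-5p: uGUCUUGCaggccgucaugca
miR-431-3p: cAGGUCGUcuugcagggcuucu
miR-433-5p: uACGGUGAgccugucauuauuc
miR-433-3p: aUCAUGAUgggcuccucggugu

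Each of the 10 mature arms of the 5 genes antisense to the coding sequence had exactly 1 site in the Rtl1 transcript that was complementary along its whole length, and all 10 sites were in the coding sequence. None of the 6 arms of Mir337, Mir540 and Mir665 had such a site. The search covered the GENCODE transcript alone, which does not reach the hairpins of these genes. The longer RefSeq span of Rtl1, which covers them, was not searched. The sites of miR-127-3p and miR-433-3p in the GENCODE transcript are shown to set them beside the arms above, in DNA letters, 5′ to 3′, with the bases opposite the seed in capitals. They span positions 2642 to 2663 and 3749 to 3770 of the transcript.
Rtl1 site of miR-127-3p: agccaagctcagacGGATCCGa
Rtl1 site of miR-433-3p: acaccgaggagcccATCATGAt
These matches follow from the antisense position and say nothing of how much Rtl1 was cleaved, which was not measured here.

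The genes are a cluster by place and not a family by sequence. No seed was shared between any of the 16 mature arms of the 8 genes. Against the 1738 mature mouse microRNAs in the RefSeq table, 15 of the 16 arms had a seed of their own, and the other, miR-540-3p, shared its seed with miR-6915-5p alone. The mature arms ran from 20 to 26 nucleotides, the longest being miR-665-5p. No run of 20 bases of any of the 8 hairpins, on either strand, occurred in another of the 1005 annotated hairpins apart from hairpins overlapping at the same place. Reads that aligned to several places, 33.4% of each library, were assigned to no gene, and copies outside annotated hairpins were not searched.

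The hairpins differed in length and in predicted folding. The shortest was Mir136 with 62 bases, followed by Mir540 with 67 and Mir127 with 70, and the longest was Mir433 with 124. The folding energy predicted by RNAfold was -35.1 kcal/mol for Mir127 (-0.501 per base), -43.4 kcal/mol for Mir431 (-0.477 per base) and -44.8 kcal/mol for Mir433. Per base, Mir433 was the least stable of the 8 at -0.361 and Mir540 the most stable at -0.610. The hairpins of Mir127, the most abundant gene, and of Mir433 are shown with both mature arms in capitals, for the difference in length.
Mir127 hairpin: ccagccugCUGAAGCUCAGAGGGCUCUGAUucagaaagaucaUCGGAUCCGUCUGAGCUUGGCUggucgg
Mir433 hairpin: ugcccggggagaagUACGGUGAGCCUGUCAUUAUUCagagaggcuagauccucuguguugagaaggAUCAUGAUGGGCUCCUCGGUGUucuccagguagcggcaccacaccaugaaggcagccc

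Mir434 stood apart by repeats within its own hairpin. Its longest repeated run had 13 bases and occurred 2 times, against 5 bases for Mir127 and Mir337, 6 for Mir433 and Mir136, 7 for Mir665 and 10 for Mir431 and Mir540. The hairpin is shown with both mature arms in capitals. The repeated run, UGGUUUGAACCAU, covers the end of miR-434-5p and the start of miR-434-3p.
Mir434 hairpin: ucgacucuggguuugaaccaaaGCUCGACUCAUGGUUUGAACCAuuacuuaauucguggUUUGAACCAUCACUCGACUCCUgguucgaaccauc

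Levels are given as CPM, counts on the gene's own strand per 1000000 such counts assigned to all microRNA genes. Replicate 1 held 4629302 assigned counts and replicate 2 held 2805487, which were 43.1% of all reads in replicate 1 and 41.8% in replicate 2. A count of 3 corresponded to 0.648 CPM in replicate 1 and 1.07 CPM in replicate 2. The tables give 1 count per gene, so reads of the 5p and the 3p arm cannot be told apart. Because the RNA was below 30 nucleotides, a read spans about 1 mature-length molecule, and CPM was not divided by gene length except where stated. Intervals are 95% Wilson intervals, each from 1 library, and cover counting error alone. They take reads as independent, but PCR copies of a molecule are counted as separate reads, so the intervals can be too narrow. The same holds for the counting SE and the exact tests below.

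Tissue markers were present. The neural list of 9 microRNAs had rows for 7, all with counts in both libraries, and summed to 7602 ± 681 CPM (SD, n = 2), led by Mir137 at 3894 ± 467.3 CPM. Mir9 and Mir124, known markers of neural progenitors and neurons, are encoded by several gene copies, whose reads can align to several places. Mir9-3 had 281 CPM, and the highest Mir124 copy, Mir124a-2, had 14.6 CPM. Of microRNAs known from other cells, endothelial Mir126a had 24839 ± 1986 CPM and the mesenchymal list 19215 ± 5453 CPM, with counts for 6 of 6 genes.

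Mir127 (ENSMUSG00000070076.1) was the most abundant of the 7 genes. It held 30633 counts in replicate 1, or 6617 CPM (6544 to 6691 CPM), and 15410 counts in replicate 2, or 5493 CPM (5407 to 5580 CPM). Its mean was 6055 ± 795 CPM (SD, n = 2), rank 38 among the 380 genes with at least 10 counts in both libraries. In the mouse, Mir127 is known for its action on Rtl1 in the labyrinth of the placenta.

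Mir431 (ENSMUSG00000070080.1) followed closely. It had 5868 CPM in replicate 1 (5799 to 5938 CPM, from 27164 counts) and 5010 CPM in replicate 2 (4928 to 5093 CPM, from 14056 counts), with a mean of 5439 ± 606 CPM and rank 41. Mir431 is known in the mouse from muscle regeneration and from axon growth of sensory neurons after injury. The means of Mir127 and Mir431 differed by 616 CPM, less than the SD of Mir127, and their values overlapped between the libraries. Within each library Mir127 was above Mir431, with 1.13 times its counts in replicate 1 (1.11 to 1.15) and 1.10 times in replicate 2 (1.07 to 1.12).

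The next 3 genes stood close together. Mir337 (ENSMUSG00000065526.3) had 1408 CPM in replicate 1 and 1187 CPM in replicate 2 (mean 1298 ± 156 CPM, rank 86). Mir433 (ENSMUSG00000070072.1) had 1066 CPM in replicate 1 and 1368 CPM in replicate 2 (mean 1217 ± 214 CPM, rank 90). In humans, miR-433 is known for a site in the transcript of FGF20, a growth factor studied in midbrain dopamine neurons. Mir434 (ENSMUSG00000070133.1) had 1234 CPM in replicate 1 and 1053 CPM in replicate 2 (mean 1143 ± 128 CPM, rank 96).

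These 3 cannot be ordered. Their means lay 80.5 and 73.8 CPM apart, less than the SD of any of them. In replicate 1 the order was Mir337, Mir434, Mir433, and in replicate 2 it was Mir433, Mir337, Mir434. The step above them was clear of the spread: Mir431 had 4.17 times the counts of Mir337 in replicate 1 (4.06 to 4.28) and 4.22 times in replicate 2 (4.06 to 4.38), and the values of the pair did not overlap.

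Mir540 and Mir665 were the lowest. Mir540 (ENSMUSG00000072900.1) had 671 CPM in replicate 1 (647 to 695 CPM) and 633 CPM in replicate 2 (605 to 664 CPM), with a mean of 652 ± 26.2 CPM and rank 122. Mir665 (ENSMUSG00000076313.1) had 572 CPM in replicate 1 (551 to 594 CPM) and 455 CPM in replicate 2 (431 to 480 CPM), with a mean of 513 ± 82.9 CPM and rank 132. The values of this pair did not overlap, and neither did those of Mir434 and Mir540, where Mir434 had 1.84 times the counts of Mir540 in replicate 1 and 1.66 times in replicate 2. From Mir127 to Mir665 the mean level spanned 11.8-fold. For scale, the median of the 380 genes was 148 CPM, and all 7 were above it.

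Divided by hairpin length, the order moved in the middle. Per 100 bases of hairpin, Mir127 had 8650 CPM, Mir431 had 5977, Mir337 had 1338, Mir434 had 1216, Mir433 had 981, Mir540 had 973 and Mir665 had 546. Mir127 and Mir431 at the top and Mir665 at the bottom kept their places, and Mir433, the longest hairpin, came after Mir434 and close to Mir540.

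**Figure D1:**
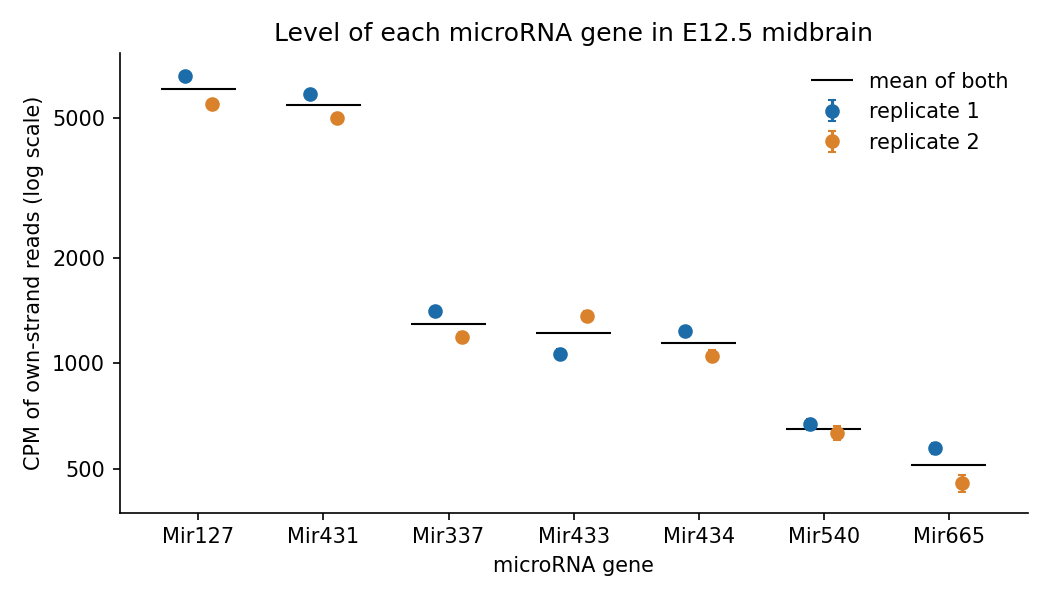
Level of each of the 7 genes in CPM of own-strand reads on a log axis, with points for replicate 1 and replicate 2, bars for 95% Wilson intervals and a line for the mean of both. Mir127 and Mir431 stand at 5010 CPM or more in both libraries, and Mir433 is the gene whose replicate 2 point lies above its replicate 1 point.

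Along the chromosome, the level did not follow the order of the genes. From Mir337 the run goes to Mir540 after 194 bases and to Mir665 after a further 167 bases, and the level was lower at each step, at 1298, 652 and 513 CPM. After a gap of 4039 bases comes Mir431 at 5439 CPM, then Mir433 at 1217, Mir127 at 6055 and Mir434 at 1143 CPM, at gaps of 1177, 1007 and 1590 bases. High and low genes thus alternated over the Rtl1 coding sequence. These 4 of the 7 genes summed to 13854 ± 1316 CPM and the 3 beside the coding sequence to 2463 ± 265 CPM (SD, n = 2). The 4 genes held 84.8% of the reads of the 7 in replicate 1 (84.5 to 85.0%) and 85.0% in replicate 2 (84.7 to 85.4%).

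**Figure D2:**
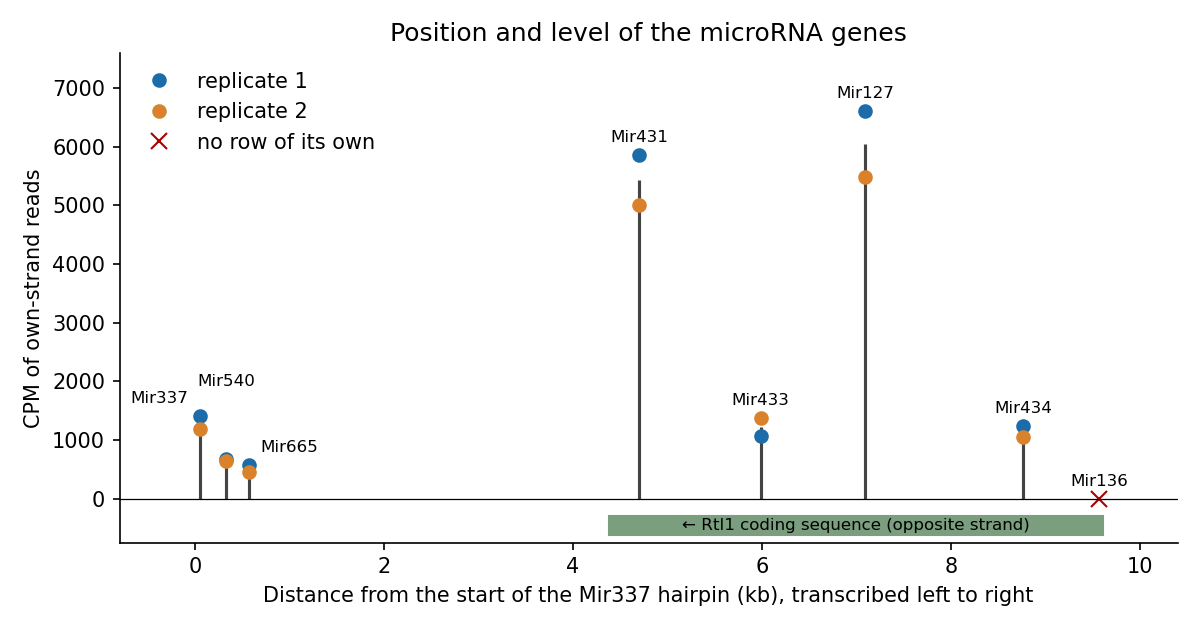
CPM of own-strand reads (vertical axis) against distance from the start of the Mir337 hairpin in kb (horizontal axis), with points for each replicate, a stem to the mean, and a bar for the Rtl1 coding sequence on the opposite strand. Mir431 and Mir127 rise above Mir433 and Mir434 over the coding sequence, and the cross marks Mir136, which had no row and so no level.

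Reads on the opposite strand, which over the coding sequence is that of Rtl1 itself, were nearly absent. At Mir431, Mir433, Mir127 and Mir434 there were 0 such reads in either library, which allows up to 0.648 CPM in replicate 1 and 1.07 CPM in replicate 2. Mir665 also had 0 in both, Mir540 had 1 in each, and Mir337 had 20 in replicate 1 and 15 in replicate 2. These are short RNAs counted over microRNA genes, so the level of Rtl1 messenger RNA cannot be read from them.

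The make-up of the summed reads was nearly the same in both libraries, apart from Mir433. Mir127 took 38.0% of the reads of the 7 genes in replicate 1 (37.6 to 38.3%) and 36.1% in replicate 2 (35.7 to 36.6%). Mir431 took 33.7% in replicate 1 and 33.0% in replicate 2. Together these 2 genes held 71.6% in replicate 1 and 69.1% in replicate 2. Mir433 took 6.11% in replicate 1 (5.95 to 6.28%) and 9.00% in replicate 2 (8.73 to 9.28%), the widest relative change of the 7. The shares of Mir337 were 8.07% in replicate 1 and 7.81% in replicate 2, and those of Mir434 were 7.08% in replicate 1 and 6.93% in replicate 2. Mir540 took 3.85% in replicate 1 and 4.17% in replicate 2, and Mir665 took 3.28% in replicate 1 and 2.99% in replicate 2. These shares do not depend on the total that CPM is divided by.

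**Figure D3:**
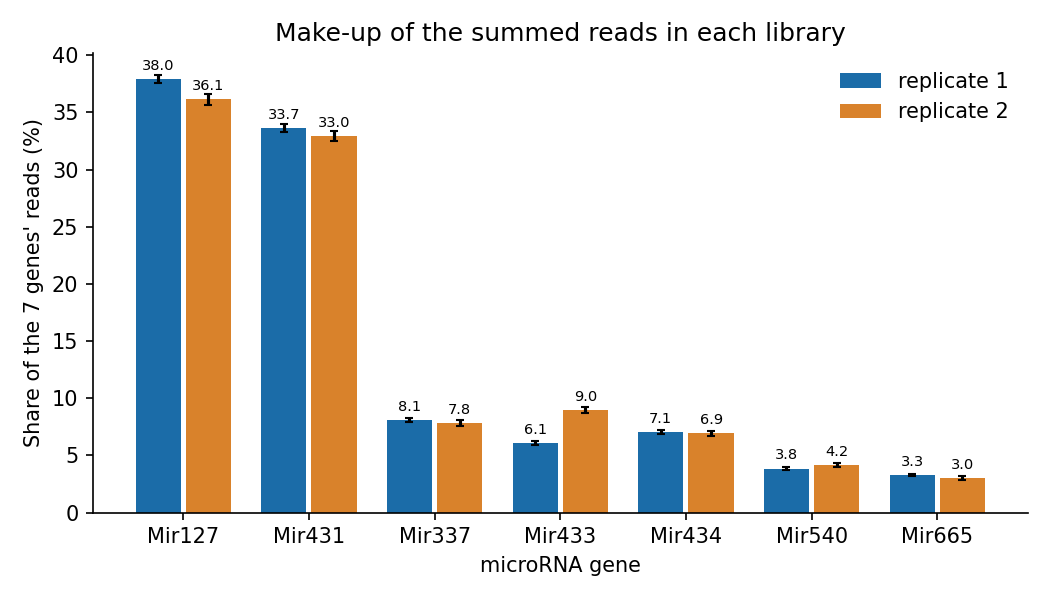
Share of the reads of the 7 genes taken by each gene, in percent, with bars for replicate 1 and replicate 2 and 95% Wilson intervals. The bars of each gene are close in height except those of Mir433, at 6.1% in replicate 1 and 9.0% in replicate 2.

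The 7 genes together were a mid-sized part of the domain. They summed to 17435 CPM in replicate 1 and 15199 CPM in replicate 2 (mean 16317 ± 1581 CPM, SD, n = 2), or 1.63% ± 0.16 of assigned counts. The list of 6 microRNAs in or near Meg3 and Rian summed to 2194 ± 272 CPM, led by Mir341 (828 ± 136 CPM), Mir370 (776 ± 107 CPM) and Mir770 (323 ± 35.3 CPM). The distal list around Mirg summed to 46664 ± 3725 CPM over the 31 of 38 genes with counts, led by Mir487b (11090 ± 719 CPM), Mir369 (6252 ± 592 CPM) and Mir411 (5640 ± 487 CPM). Of that list, Mir299a, Mir380, Mir376a, Mir376b and Mir409 had no row by symbol and are not in its sum.

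Of the reads of these 3 groups, the 7 genes held 25.2% in replicate 1 and 24.8% in replicate 2. The Meg3-Rian list held 3.45% in replicate 1 and 3.27% in replicate 2, and the Mirg list 71.3% in replicate 1 and 71.9% in replicate 2. By gene, the 7 as chosen were more evenly high. Their median was 1217 CPM with 5 of 7 at 1000 CPM or more. The median was 231 CPM with 0 of 6 at that level in the Meg3-Rian list, and 340 CPM with 11 of 31 in the Mirg list. These are levels in 1 tissue and were not tested against each other.

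**Figure D4:**
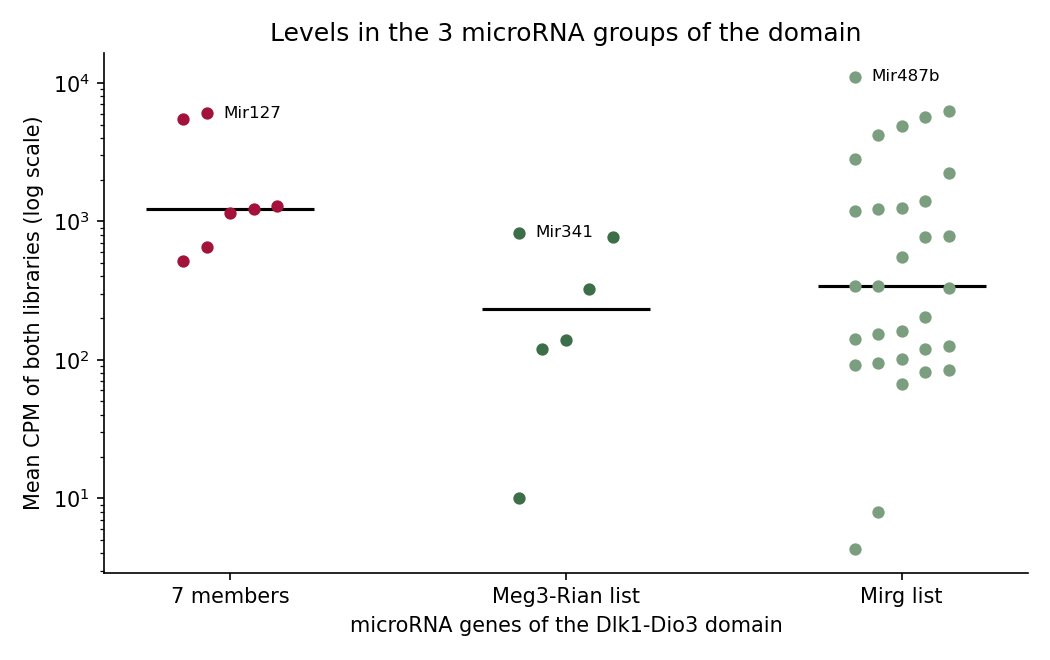
Mean CPM of both libraries on a log axis for each gene with counts, in the 7 genes, the Meg3-Rian list and the Mirg list, with a line at the median of the quantified genes of each group. The 7 genes lie between 513 and 6055 CPM, and the other groups reach down to 9.96 and 4.30 CPM.

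By level in both libraries, the genes outside the 7 that were most like Mir127 included others of the domain. Likeness was the Euclidean distance between log2 CPM values over the 2 libraries, among the quantified genes other than the 7. The nearest was Mir369 at 6670 CPM in replicate 1 and 5833 CPM in replicate 2 (distance 0.088), then Mir411 at 5985 CPM in replicate 1 and 5296 CPM in replicate 2 (distance 0.15), both of the Mirg list. Mir15a on chromosome 14 followed at 5408 CPM in replicate 1 and 5707 CPM in replicate 2 (distance 0.30). With 2 libraries this is a likeness of level and little else.

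Between the libraries, 5 of the 7 genes were higher in replicate 1, 1 was lower and 1 was not called. Fisher's exact test (two-sided) set the count of a gene against the remaining assigned counts, with Benjamini-Hochberg adjustment over the 380 genes and a threshold of 0.05. It compares these 2 libraries with counting noise, not conditions. Of the 380 genes, 54.2% were called, 27.1% higher in replicate 1 and 27.1% higher in replicate 2. The 7 genes are well counted, and of the 148 genes with at least 1000 counts in both libraries 84.5% were called, 41.2% higher in replicate 1 and 43.2% in replicate 2. The 6 calls among 7 genes are thus near the share for genes of that depth.

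In log2 of replicate 1 over replicate 2, Mir127 was 0.27 ± 0.01 (counting SE, exact test adjusted p = 2.97e-80), a 1.20-fold difference. Mir431 was at 0.23 ± 0.01 (exact test adjusted p = 2.16e-52), Mir337 at 0.25 ± 0.03 (3.08e-15), Mir434 at 0.23 ± 0.03 (5.88e-12) and Mir665 at 0.33 ± 0.05 (3.94e-11). Mir540 was not called, at 0.08 ± 0.04 (exact test adjusted p = 0.097). With DESeq2 size factors it was called, at 0.12 with an exact binomial adjusted p of 0.013.

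Mir433 went the other way. Its log2 ratio was -0.36 ± 0.03 (exact test adjusted p = 5.73e-30), so it was 1.28-fold higher in replicate 2. It lies 1177 bases from Mir431 and 1007 bases from Mir127, which were both higher in replicate 1. In the Meg3-Rian list, Mir493 was likewise lower in replicate 1, at -0.40 ± 0.10 (exact test adjusted p = 0.00016), while Mir341, Mir370, Mir770 and Mir673 were called higher in replicate 1 and Mir1188 was not called. In the Mirg list, 19 of the 31 quantified genes were called higher in replicate 1 and 4 lower, and 8 did not pass.

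The median log2 ratio was 0.23 for the 7 genes, 0.23 for the Meg3-Rian list and 0.20 for the Mirg list, against -0.04 over the 380 genes. This leaning of the domain towards replicate 1 was known from earlier results on these libraries and is not independent support. All 7 ratios lay within the central 95% of the 148 well-counted genes, which ran from -0.74 to 0.55. The differences were thus beyond counting noise with reads taken as independent, Mir540 apart. They lay within the central range seen between these 2 pools for the 148 well-counted genes, a set that includes the 7.

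**Figure D5:**
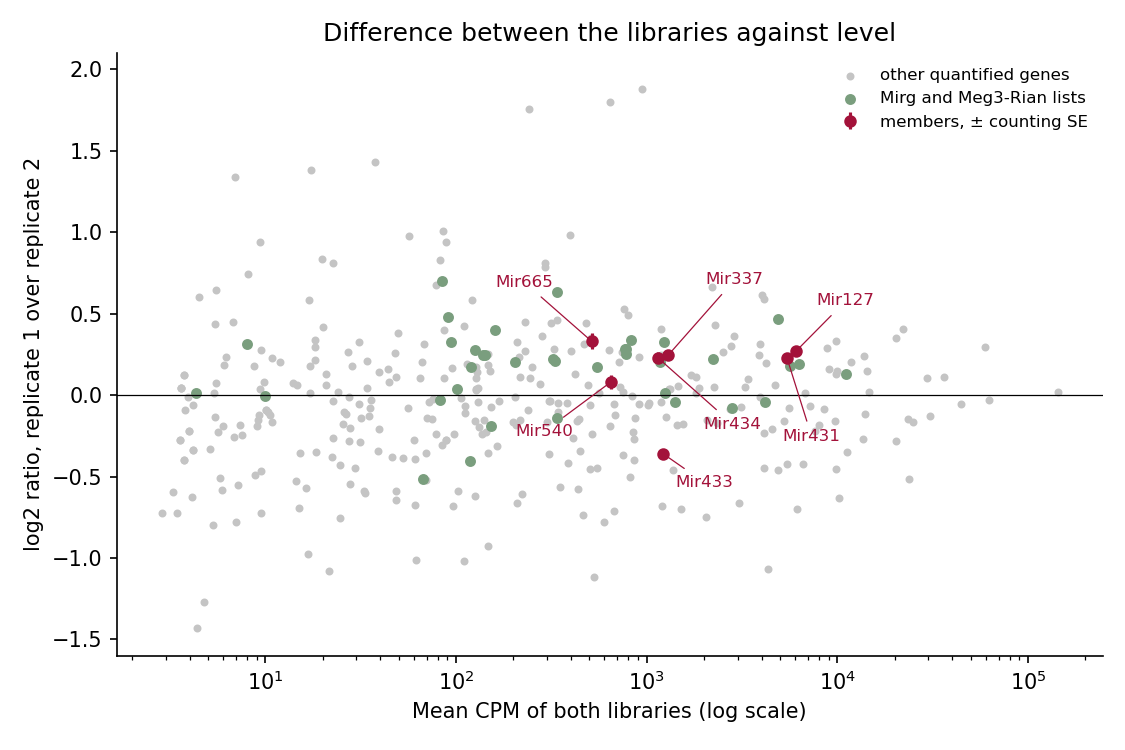
Log2 ratio of replicate 1 over replicate 2 against mean CPM of both libraries on a log axis, for the 380 quantified genes, with the 7 genes in red (bars are the counting SE) and the Mirg and Meg3-Rian lists in green; 1 gene lies outside the vertical range. Of the 7 red points, 6 lie above 0 and Mir433 lies below it at -0.36.

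Apart from the muscle list, the summed levels of the neural list and of marker lists of other cells and regions also differed between the libraries. The neural list had 8084 CPM in replicate 1 and 7120 CPM in replicate 2. The choroid plexus genes Mir204 and Mir449a summed to 2487 CPM in replicate 1 and 692 CPM in replicate 2. The 3 erythroid genes summed to 413 CPM in replicate 1 and 271 CPM in replicate 2, and they did not move together: by Fisher's exact test Mir451a was higher in replicate 1 (log2 ratio 0.81), Mir486 was lower (log2 ratio -1.08) and Mir144 was not called (log2 ratio -0.20). Lower in replicate 1 were the mesenchymal list (15359 CPM, against 23071 CPM in replicate 2) and endothelial Mir126a (23434 CPM, against 26243 CPM in replicate 2). The leukocyte list of 4 genes summed to 607 CPM in replicate 1 and 769 CPM in replicate 2, with 3 genes called lower in replicate 1 and Mir155 called higher (log2 ratio 0.17). The Hox cluster list, with counts in both libraries for 5 of 6 genes, stood at 225 CPM in replicate 1 and 419 CPM in replicate 2, and liver Mir122 at 8.64 CPM in replicate 1 and 69.5 CPM in replicate 2. Of the muscle list, 1 of the 4 genes with a row, Mir206, had counts in both libraries, and the list stood at 22.2 CPM in replicate 1 and 22.8 CPM in replicate 2. The part of these cells in the differences of the 7 genes was not tested.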

How the data were processed

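MicroRNA sequencing of RNA below 30 nucleotides was analysed from 2 libraries of 1 group, named biological replicates 1 and 2 in the labels. Per the deposited read-me files, the authors derived the raw counts per microRNA gene by aligning reads to mm10 and counting over annotation release M4; no source used here names the aligner or the counter. The own-strand column was used (97.6% of reads assigned on either strand in replicate 1, 97.5% in replicate 2). Totals and tests left out the rows that name no gene (56.9% of the reads of replicate 1, 58.2% of those of replicate 2). Symbols and positions came from GENCODE M21 (GRCm38), in which 1894 of the 1973 identifiers were found, and sequences from RefSeq (GRCm38.p6), which held all 8 hairpins.

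CPM, Wilson intervals, the exact tests with Benjamini-Hochberg adjustment (threshold 0.05, at least 10 counts in both libraries) and distances were computed with scipy 1.17.1, scaling factors with edgeR 4.0.16 and DESeq2 1.42.0, and folding with RNAfold 2.7.2. Tests with these factors were exact binomial tests. The gene-by-gene test was tested on simulated data. These held counting noise alone, so the simulation does not cover PCR copies or variation between pools. All 7 genes are named; beside them come the 3 other genes nearest in level to Mir127, the leading 3 of each list of the domain, exceptions chosen after their values were seen (Mir493, Mir673, Mir1188), and markers. The members and lists were chosen with earlier results of these data known. Alternatives covered the total, the strand, low counts, scaling, hairpin length and each replicate left out; shares of the 7 genes' own reads were added after seeing the data and are given with no test.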

Additional observations from a re-analysis of the deposited data

Results flagged for a closer look

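Reads outside the own-strand counts of the 7 genes were looked at where their number was above the 3 counts that a count of 0 allows.

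Mir136, the member with no row, shares its place with Mir3071, which GENCODE M21 puts on the minus strand (chr12:109595318-109595397). The row of the Mir3071 identifier held 1159 counts in replicate 1, or 250.4 CPM, and 583 counts in replicate 2, or 207.8 CPM, with 0 reads on the opposite strand in both. Its log2 ratio of replicate 1 over replicate 2 was 0.27 ± 0.07 (counting SE, exact test adjusted p = 0.00054). The identifier is at version 1 in the count tables and version 2 in M21, and its strand in release M4 is not given in the sources used here. Whether these are reads of Mir3071 or of Mir136 therefore cannot be told apart, and they were counted for neither. The mature arms of Mir136 are shown as the sequences that would separate them by strand, with the seed in capitals.
miR-136-5p: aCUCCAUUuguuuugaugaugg
miR-136-3p: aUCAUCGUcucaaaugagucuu

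At Mir337, 20 reads in replicate 1 and 15 in replicate 2 lay on the opposite strand, where M21 lists Mir3544 (chr12:109585813-109585873), which had no row. Between Mir665 and Rtl1, the row of Mir3070a held 15 counts in replicate 1 and 8 in replicate 2, and that of Mir3070b held 4 counts in replicate 1 and 0 in replicate 2.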

How the results depend on the processing

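The 6 members called between the libraries stayed at 6 with TMM factors, with no filter and with either strand, and were 7 with DESeq2 size factors, which add Mir540. No log2 ratio of a member changed sign under any of these. Of all genes tested, 206 of 380 were called in the main setting, 205 of 380 with TMM factors and 201 of 380 with DESeq2 size factors. With either strand 214 of 391 were called, and with no filter 199 of 746, a much lower share. The median member ratio ran from 0.23 to 0.26. DESeq2 size factors moved the share of calls higher in replicate 1 to 55.7%, from 50%. Levels follow the total used. Per 1000000 reads of the whole library, the median member stood at 515 and the sum at 6930, and without Mir99a in the total at 1420 and 19042 CPM. Without Mir127 the sum was 10262 CPM. With the Mir3071 row, an alternative chosen after seeing the data, it was 16546 CPM. Of the 7 places in the order, 5 held per 100 bases of hairpin, and 5 with either replicate left out. With a replicate left out the sum ran from 15199 to 17435 CPM and the median member from 1187 to 1234 CPM, and no test between the libraries was left. No paired analysis was possible because the 2 libraries form 1 group. At these depths a count of 3 was 0.648 CPM in replicate 1 and 1.07 CPM in replicate 2, far below every member. Counting error, with reads taken as independent, is thus small, and the spread between 2 pools limits the comparisons of the libraries. Ratios between genes may also carry a bias of library preparation that recurs in both libraries. Neither the SD nor the intervals would show such a bias, and it was not tested.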
